A study of Mus musculus with 6 samples.

Results

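The circRNAs described here are the intronic, antisense, intergenic and sense overlapping circRNAs among those listed as more than 1.5-fold higher or lower in diabetic-derived neutrophils than in non-diabetic-derived neutrophils. Of the 453 listed circRNAs, 342 were exonic and 111 were of another type. From these 111, the 4 circRNAs of Malat1, the 1 of Hic2 and the 7 whose host gene also had 2 or more exonic circRNAs in the lists were left out, which gave 99. They comprised 58 sense overlapping, 20 intronic, 8 antisense and 13 intergenic circRNAs, among 14236 circRNA probes on the array. Of the 99, 54 were listed as higher and 45 as lower in db. Because the difference between the group means of log2 signal chose them, that difference is given as a description without a test.

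Neutrophils were isolated with anti-Ly-6G microbeads from bone marrow of male mice at 8 weeks of age, all on the BKS.Cg-Dock7m +/+ Leprdb/J background. The strain was obtained as Lepr db/db and Lepr db/+ mice, and the study calls the groups diabetic (db) and non-diabetic (non-db). Each group had 3 pools and each pool held bone marrow of 3 mice, so the spread between samples is one between pools and not between single animals. The non-db pools are numbered 1, 2 and 3 and the db pools 4, 5 and 6. RNA was treated with RNase R, which digests linear RNA and spares circles, and was labelled with Cy3 and hybridized to 1 array per pool. Of 12 neutrophil marker genes, 0 were among the host genes of the listed circRNAs or the linear control probes, so the cell type on the labels could not be checked here.

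circRNAs form when a downstream splice donor is joined to an upstream acceptor, and most of those known consist of exons of protein-coding genes. Intronic circRNAs are made of intron sequence and largely stay in the nucleus, where some are known to act on transcription of their own gene. Antisense circRNAs are transcribed from the strand opposite to the named gene, the best known being that opposite Cdr1, which binds miRNAs of the miR-7 family. Sense overlapping circRNAs come from the same strand as a gene without following its exons, and intergenic circRNAs lie outside annotated genes.

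The array values used here were the deposited log2 signals, whose 6 columns had nearly identical distributions. The scanner's detection flag came from the 5 complete scanner files, and a probe was kept when that flag marked it as well above background on 3 or more of them, which left 12722. All 99 circRNAs passed, 98 of them on all 5 arrays, the exception being mmu_circRNA_34003 of Ctnnd1. Over all probes kept, 206 (1.62%) had a db mean more than 1.5-fold above the non-db mean and 246 (1.93%) one more than 1.5-fold below it. limma's moderated test gave 205 probes with an unadjusted p under 0.05 and 0 after Benjamini-Hochberg adjustment, with a smallest adjusted p of 0.951, and the methods' t-test gave 274 and 0. The number of arrays limits the precision of every value.

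The 54 circRNAs listed as higher had most of their difference in a single db pool. The smallest fold difference was 1.51 and the median 1.65, and 13 exceeded 2-fold. Pool 4 had the highest signal of the 6 pools for 50 of the 54, against 29.4% of all probes kept. Pool 5 was the highest for 3, and the non-db pool 3 for the remaining 1. All non-db pools were exceeded by pool 4 for 53, by pool 5 for 47 and by pool 6 for 5. Over all probes kept these shares were 32.3%, 18.3% and 19.9%. For 14 of the 54, pool 6 was below all non-db pools, against 14.6% of all probes kept. The order pool 4, pool 5, pool 6 from high to low was seen for 49, and its share over all probes was not computed. With the non-db mean subtracted, median log2 signals over the 54 were 1.70, 0.75 and -0.056 in pools 4, 5 and 6. The corresponding medians over all probes kept were -0.012, 0.0049 and 0.019. In pooled cells, a change in the number of cells of a type and in the RNA of each cell cannot be told apart. The median SD within a group was 0.167 log2 units in non-db and 0.934 in db, against 0.192 and 0.186 over all probes kept. The group difference chose these circRNAs, so nothing is read from their contrasts with all probes.

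The types shared this pool pattern. The median difference in pool 4 was 1.73 for the 28 sense overlapping, 1.91 for the 9 intronic, 2.09 for the 7 antisense and 1.62 for the 10 intergenic circRNAs. In pool 5 the medians were 0.72, 0.98, 0.82 and 0.51 in the same order of types. In pool 6 they lay between -0.13, for antisense, and -0.039, for intronic. The 151 exonic circRNAs listed as higher had medians of 1.72, 0.89 and -0.055 in the db pools. Pool 4 was the highest pool for 93.4% of these exonic circRNAs and for 92.6% of the 54. No difference between types was tested, because circRNAs are not replicates.

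The 45 circRNAs listed as lower had a looser pattern, in which the non-db pools also differed among themselves. Folds lay between 1.504 and 2.30 with a median of 1.62, and only the 3 circRNAs of Hist1h1c were more than 2-fold lower. Pool 4 was the lowest of the 6 pools for 33 of the 45, against 28.4% of all probes kept. Signals below those of all non-db pools were found in pool 4 for 39, in pool 5 for 17 and in pool 6 for 13. Over all probes kept these shares were 31.4%, 17.1% and 14.6%. As for the higher side, nothing is read from these contrasts with all probes. Median log2 differences from the non-db mean were -1.29, -0.55 and -0.33 in pools 4, 5 and 6. The median SD was 0.676 in non-db and 0.554 in db. The highest non-db value was in pool 3 for 20 circRNAs, in pool 2 for 14 and in pool 1 for 11. A non-db SD above 1 log2 unit was found for 6 of them.

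**Figure D1:**
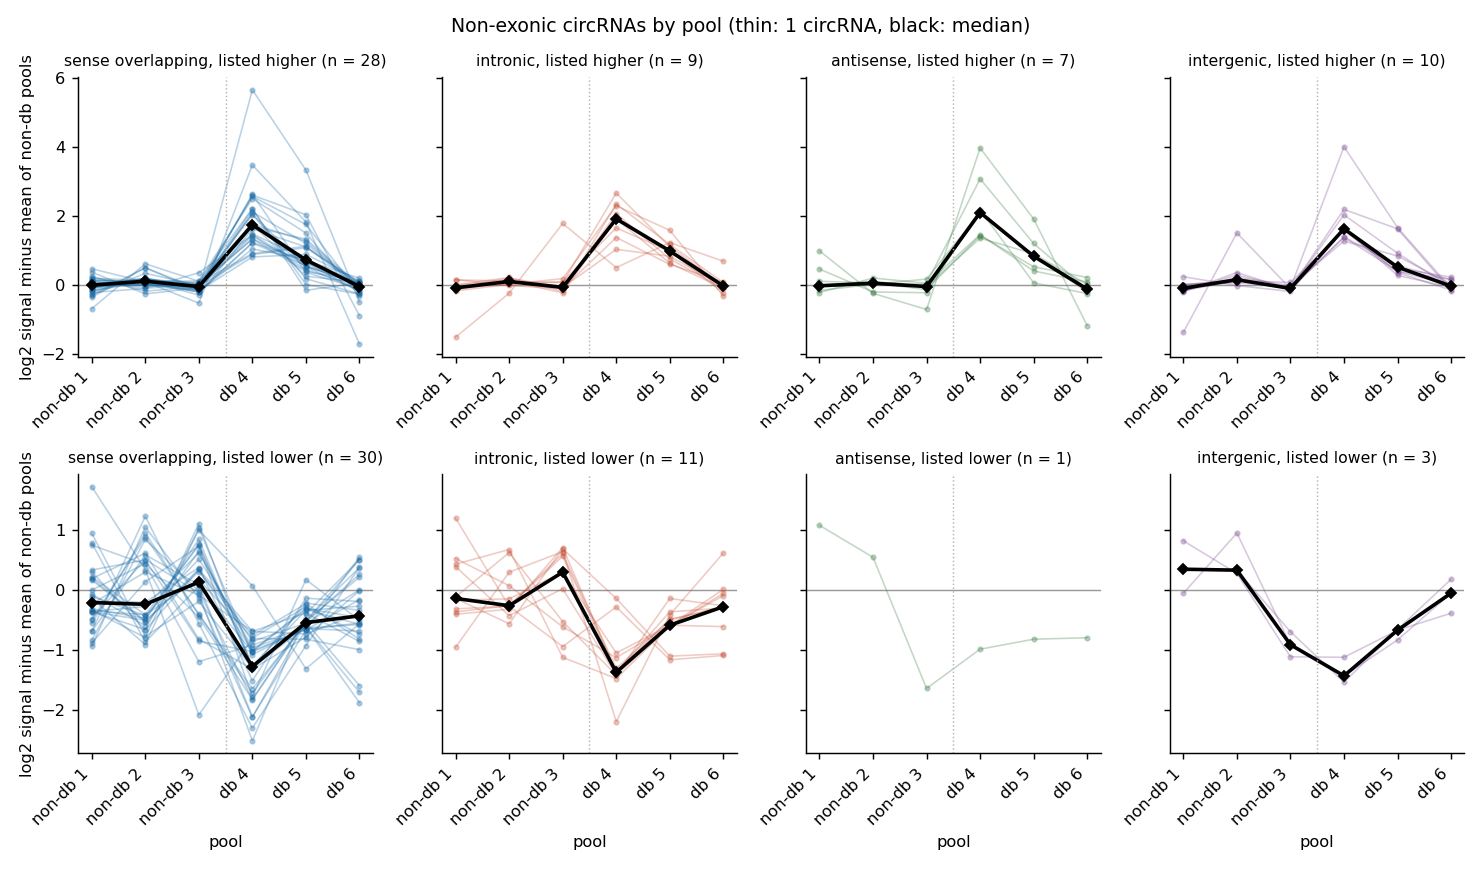
Log2 signal of each of the 99 circRNAs in each pool, as the difference from its mean over the non-db pools, by type (columns) and listed direction (rows); thin lines join the values of 1 circRNA, black lines join the medians, and the vertical scale differs between the rows. In the upper row the medians lie near 0 in the non-db pools and in pool 6 and are highest in pool 4, at 1.62 to 2.09. In the lower row the non-db values spread widely and pool 4 has the lowest median of each type with more than 1 circRNA.

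Groups without overlap were uncommon in both directions. All db pools lay above all non-db pools for 5 of the 54 (9.26%), while this held for 3.96% of all probes kept. All db pools lay below all non-db pools for 6 of the 45 (13.3%), against 2.68% of all probes. Since the group difference chose the circRNAs, nothing is read from the excess. The 5 were mmu_circRNA_28801 of Cacng2, mmu_circRNA_36182 of AK034519, the antisense mmu_circRNA_36140 and the intergenic mmu_circRNA_19396 and mmu_circRNA_42478. The 6 were mmu_circRNA_009340 of Hist1h1c, mmu_circRNA_005444 of XLOC_010800, mmu_circRNA_012381 of Flna, mmu_circRNA_014445 of Myh9, mmu_circRNA_34003 of Ctnnd1 and the intronic mmu_circRNA_19188.

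Without pool 4, 10 of the 54 stayed more than 1.5-fold higher and 13 of the 45 more than 1.5-fold lower. The sign of the difference was the same for 50 and 43. Those past the threshold on the higher side were 5 sense overlapping, 3 intronic and 2 intergenic circRNAs, and 0 of the 7 antisense. Among the exonic circRNAs, 30.5% of the 151 listed as higher and 28.8% of the 191 listed as lower stayed past the threshold, against 18.5% and 28.9% here. Pool 4 was scanned in the same session as the non-db pool 1 and the other 4 pools in another session. Within the first session, pool 4 exceeded pool 1 for 54 of the 54 circRNAs listed as higher, with a median log2 difference of 1.79. Within the second, pools 5 and 6 averaged above pools 2 and 3 for 50, with a median of 0.34. For the circRNAs listed as lower the medians were -1.18 within the first session, with 44 of 45 below 0, and -0.45 within the second, with 42 below 0. The listing used the same values, and shares by session over all probes kept were not computed, so nothing is read from these counts. The part of the scan session in these differences was not tested for single circRNAs.

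**Figure D2:**
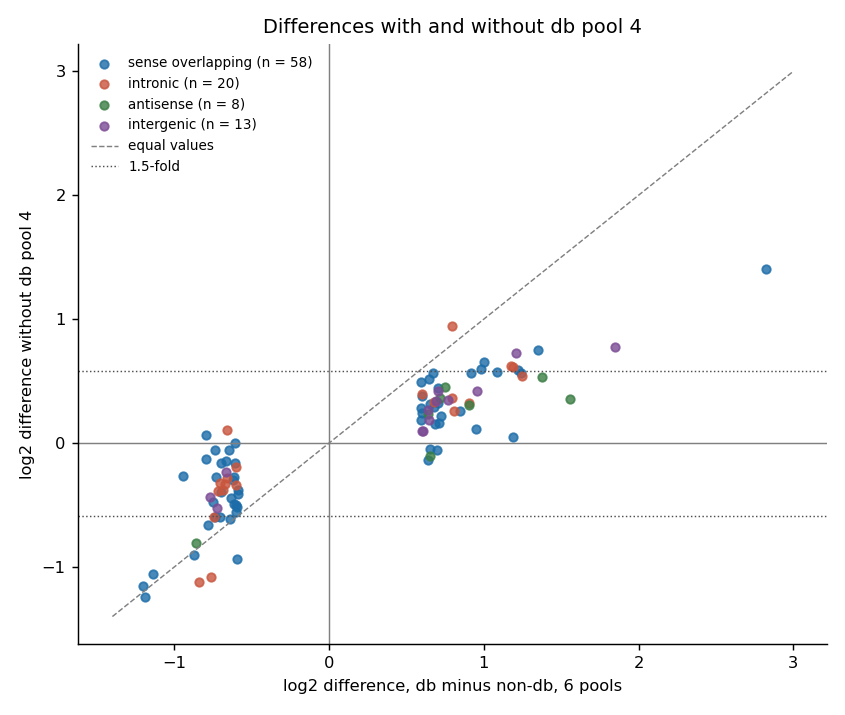
Log2 difference between db and non-db of each circRNA over all 6 pools (horizontal axis) against the same difference without db pool 4 (vertical axis), coloured by type, with dotted lines at 1.5-fold and a dashed line of equal values. Most points listed as higher lie below the dashed line and inside the dotted lines, and 10 of 54 remain above the upper one. The 3 Hist1h1c points, at the lower left, lie near the line of equal values.

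Median signal differed between the types. Over the 6 pools it was 8.63 for antisense, 7.77 for sense overlapping, 7.73 for intronic and 7.18 for intergenic circRNAs on the log2 scale. The median was 7.44 for the exonic circRNAs of the lists and 6.20 for all probes kept. The brightness of a probe depends on its own sequence as well as on its target, so these values compare sets of probes and not amounts of RNA. The median of the antisense, the sense overlapping and the intronic set was above the exonic median in 6 of 6 pools, and that of the intergenic set in 2. With 1 circRNA per locus, an alternative chosen after seeing the data, the order of the types was different, and the median above that of all probes kept was 2.42 for antisense, 1.75 for intergenic, 1.42 for sense overlapping and 1.32 for intronic circRNAs. Over the pools, the antisense median ran from 7.71 in pool 3 to 10.01 in pool 4 and the sense overlapping median from 7.68 in pool 6 to 8.18 in pool 4. The intronic median lay between 7.40 in pool 6 and 8.33 in pool 4, and the intergenic one between 6.59 in pool 3 and 8.03 in pool 4. The spread of an intronic or sense overlapping median over the pools covered the gap between them. Each set mixed circRNAs listed as higher and as lower, with 7 of the 8 antisense and 10 of the 13 intergenic ones listed as higher. The course of a median over the pools therefore follows in part from the listing.

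**Figure D3:**
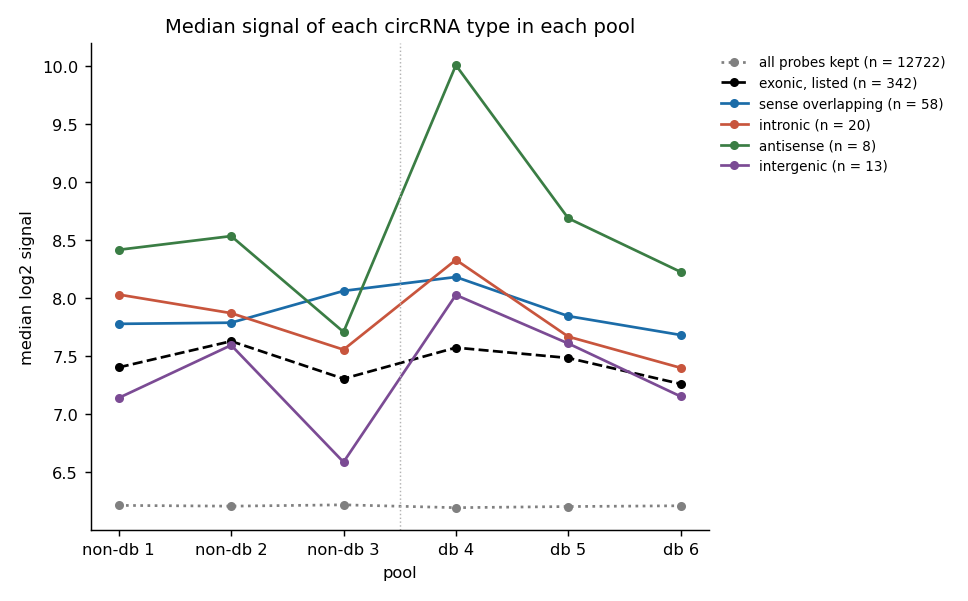
Median log2 signal of the circRNAs of each type in each of the 6 pools, with the listed exonic circRNAs (black, dashed) and all probes kept (grey, dotted). All probes stay near 6.20, and each non-exonic type has its highest median in pool 4, with the antisense circRNAs at 10.01. Each type mixes circRNAs listed as higher and as lower, so the place of pool 4 follows in part from the listing.

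Listed directions were unequal between the types. Over all 453 listed circRNAs 45.5% were listed as higher, and the share was 44.2% for exonic, 44.6% for sense overlapping and 37.5% for intronic ones. It was 77.8% for the 9 antisense and 76.9% for the 13 intergenic circRNAs, counted before any was left out. These shares describe small sets and were not tested.

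Of the 8 antisense circRNAs, 7 were listed as higher and the remaining 1, of Ppp2r3a, as lower. mmu_circRNA_001946, on chromosome X and antisense to Cdr1, is the circRNA known as a sponge of miR-7. Its log2 signal was 7.51, 7.93 and 7.78 in non-db pools 1, 2 and 3 and 10.81, 8.93 and 7.61 in db pools 4, 5 and 6. Pools 4 and 5 were higher than any non-db pool, while pool 6 lay among them. The mean of the db pools was 9.12 ± 1.61 and that of the non-db pools 7.74 ± 0.21 (SD, n = 3 each). The log2 difference of 1.38 became 0.53 without pool 4. The mature miRNAs that this circRNA is known to bind are shown because their seed, bases 2 to 8, given in capitals, decides which sites they pair with. The miR-7 pair shares a seed, and that of miR-671-5p, whose near-complementary site in the circle is known to direct its cleavage, differs from it. Sequences are from RefSeq.
mmu-miR-7a-5p: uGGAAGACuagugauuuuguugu
mmu-miR-7b-5p: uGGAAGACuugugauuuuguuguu
mmu-miR-671-5p: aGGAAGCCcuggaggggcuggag
The files hold neither the ends nor the sequence of the circRNA. The strand antisense to Cdr1 is therefore shown over the 250 bases that precede the Cdr1 start, chrX:61185559-61185808 on the plus strand of GRCm38.p6, with each GTCTTCC, the match to the miR-7 seed, in capitals. Whether this window lies inside the circle cannot be read from the files.
Cdr1 antisense strand: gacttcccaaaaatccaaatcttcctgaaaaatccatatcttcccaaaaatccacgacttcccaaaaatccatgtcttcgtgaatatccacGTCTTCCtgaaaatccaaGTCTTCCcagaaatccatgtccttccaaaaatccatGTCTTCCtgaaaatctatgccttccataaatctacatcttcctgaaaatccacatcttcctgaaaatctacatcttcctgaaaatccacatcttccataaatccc
The window holds 3 matches on the printed strand and 0 on the other. Over the same 250 bases before the start of 32851 RefSeq genes, 4.31% held a match on either strand and 4 genes, Cdr1 included, held 3. The shorter match TCTTCC, to bases 2 to 7 of the miRNA, occurred 9 times in the window, counting the 3 longer ones, and at least once in 22.8% of all windows.

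mmu_circRNA_19469, antisense to Trim21 on chromosome 7, was the antisense circRNA with the largest difference. Trim21 is a cytosolic antibody receptor and E3 ubiquitin ligase. Its log2 signals were 12.07, 10.84 and 10.37 in non-db and 15.06, 13.001 and 9.91 in db pools. Pools 4 and 5 were above every non-db pool and pool 6 below every one, so the difference of 1.56 had SDs of 2.59 in db and 0.88 in non-db. Without pool 4 it was 0.36. mmu_circRNA_28801, antisense to Cacng2, which encodes an auxiliary subunit of glutamate receptors and calcium channels, measured 7.88, 7.83 and 7.64 in non-db and 9.20, 8.30 and 7.99 in db pools. All db pools were above all non-db pools, with pool 6 close to pool 1. mmu_circRNA_36140, an antisense circRNA of chromosome 3 without a listed gene, measured 5.34, 5.43 and 5.41 in non-db and 6.84, 5.79 and 5.47 in db pools. Its groups were also separate, again by little in pool 6. The circRNAs antisense to Col19a1, a collagen gene, and Zfhx3, a zinc-finger homeobox gene, had log2 differences of 0.75 and 0.65. That of Zfhx3 was -0.11 without pool 4, a change of sign. mmu_circRNA_018555, antisense to Ppp2r3a, a regulatory subunit of protein phosphatase 2A, measured 10.34, 9.81 and 7.62 in non-db and 8.27, 8.44 and 8.47 in db pools. The db pools were close together, and they lay between pool 3, the lowest, and pools 1 and 2.

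**Figure D4:**
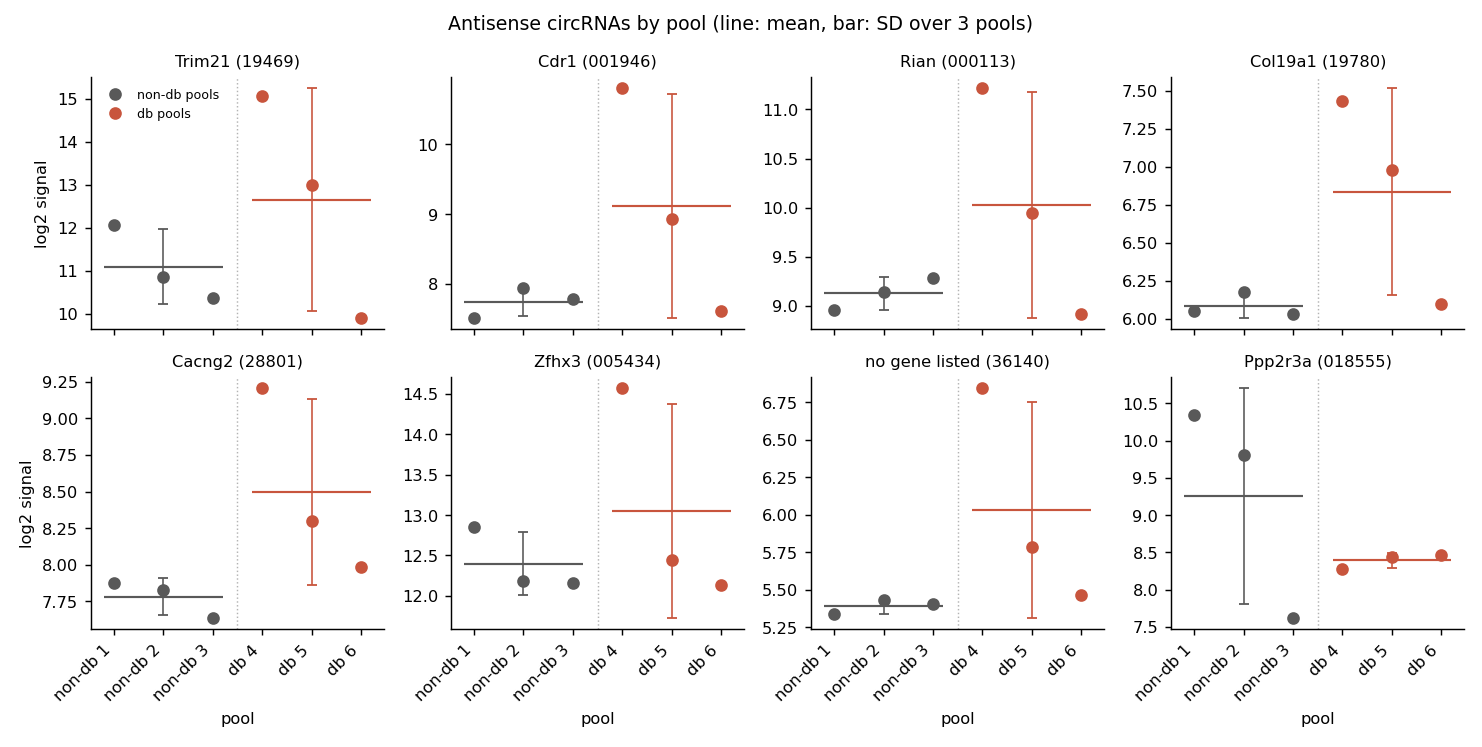
Log2 signal of the 8 antisense circRNAs in each pool, grey for non-db and red for db, with the group mean (line) and SD over 3 pools (bar); each panel has its own scale. In 7 panels pool 4 is the highest pool, and only for mmu_circRNA_28801 (Cacng2) and mmu_circRNA_36140 (no gene) do all db pools lie above all non-db pools. mmu_circRNA_018555 (Ppp2r3a) has its widest spread among the non-db pools.

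A pair of circRNAs, 1 antisense to Rian and 1 sense overlapping in Mirg, mapped to non-coding RNA genes of the imprinted Dlk1-Dio3 domain of chromosome 12 that are transcribed from the maternal allele. Both genes host miRNAs, and 6 mature miRNAs of the RefSeq table lie inside Rian and 19 inside Mirg. mmu_circRNA_000113, antisense to Rian, measured 8.96, 9.14 and 9.29 in non-db and 11.22, 9.95 and 8.92 in db pools. mmu_circRNA_25839, sense overlapping in Mirg, measured 7.10, 7.04 and 6.62 in non-db and 8.54, 8.01 and 6.95 in db pools. For both, pools 4 and 5 were above every non-db pool and pool 6 was not. The log2 differences were 0.90 for Rian and 0.91 for Mirg, and 0.31 and 0.56 without pool 4. One mature miRNA from each gene is shown, with the seed in capitals, because these genes are known as miRNA hosts. The circRNA antisense to Rian is by its type on the strand opposite to that gene. miR-370-3p lies inside Rian and miR-410-3p inside Mirg, and their levels were not measured on this array.
mmu-miR-370-3p: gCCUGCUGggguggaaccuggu
mmu-miR-410-3p: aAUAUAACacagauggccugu

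Among the 20 intronic circRNAs, 9 were listed as higher and 11 as lower. The largest positive difference was that of mmu_circRNA_19677 in Ncoa2, a nuclear receptor coactivator. Its log2 signals were 8.90, 9.14 and 9.11 in non-db and 11.70, 10.14 and 9.02 in db pools. mmu_circRNA_32706 in Cnnm2, a magnesium transport gene, measured 7.26, 7.22 and 6.88 in non-db and 9.46, 8.28 and 7.18 in db pools. mmu_circRNA_30500 of chromosome 17, without a listed gene, measured 5.20, 5.39 and 5.55 in non-db and 7.66, 6.95 and 5.05 in db pools. For all of these pool 4 was highest, pool 5 second and pool 6 no higher than the highest non-db pool. The differences were 1.24, 1.19 and 1.18, and 0.54, 0.61 and 0.62 without pool 4. Tulp4, whose protein resembles the tubby family and joins ubiquitin ligase complexes, had a pair of intronic circRNAs. mmu_circRNA_19175 measured 5.63, 5.47 and 5.37 in non-db and 7.55, 6.23 and 5.39 in db pools. mmu_circRNA_008009 measured 5.47, 5.68 and 5.27 in non-db and 7.38, 6.10 and 5.37 in db pools. After each was centred on its own mean, both differed by at most 0.28 log2 units in any pool.

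mmu_circRNA_19555 in XLOC_027457 on chromosome X was the 1 circRNA listed as higher whose highest value was in a non-db pool, and it is named for that after its values were seen. It measured 12.36, 13.64 and 15.66 in non-db and 14.38, 15.10 and 14.56 in db pools. Its db pools were close together inside the wide non-db range, so the difference of 0.80 grew to 0.95 without pool 4.

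The intronic circRNAs with the largest negative differences were mmu_circRNA_28632, mmu_circRNA_31249 and mmu_circRNA_19188. mmu_circRNA_28632 of chromosome 15, without a listed gene, measured 10.16, 8.69 and 8.02 in non-db and 8.68, 7.79 and 7.87 in db pools. Pool 1 was the highest pool. The difference was -0.84 over all pools and -0.24 without pool 1. In the scanner values of pools 2 to 6 it was 0.056 when scaled to the 75th percentile, 0.032 when quantile-normalized and -0.22 with normexp. mmu_circRNA_31249 in Ccny, a cyclin gene, measured 8.34, 7.92 and 9.17 in non-db and 8.34, 7.37 and 7.41 in db pools. Its pool 4 was within the non-db range, and the difference of -0.76 was -1.08 without it. mmu_circRNA_19188 of chromosome 17, without a listed gene, measured 8.44, 8.46 and 8.91 in non-db and 7.56, 8.02 and 8.001 in db pools. All db pools lay below all non-db pools. The difference was -0.74, with an SD of 0.26 in both groups, and -0.59 without pool 4.

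The 13 intergenic circRNAs comprised 10 listed as higher and 3 as lower. Consecutive circRNA numbers on chromosome 7, mmu_circRNA_42478, mmu_circRNA_42479 and mmu_circRNA_42480, were all listed as higher. mmu_circRNA_42480 measured 7.14, 7.59 and 7.22 in non-db and 11.32, 8.97 and 7.21 in db pools. mmu_circRNA_42478 measured 6.66, 6.76 and 6.54 in non-db and 8.03, 7.04 and 6.81 in db pools. mmu_circRNA_42479 measured 5.70, 5.45 and 5.27 in non-db and 7.09, 5.94 and 5.69 in db pools. The order of the db pools was the same for all of them, but the differences were unequal, at 1.85, 0.64 and 0.77. mmu_circRNA_19314 of chromosome 4 measured 9.52, 12.40 and 10.78 in non-db and 13.08, 12.52 and 10.73 in db pools, and pool 2 nearly reached pool 5. mmu_circRNA_41580 of chromosome 7 measured 6.66, 6.85 and 6.59 in non-db and 8.72, 7.61 and 6.62 in db pools, with pool 6 inside the non-db range. mmu_circRNA_19396 of chromosome 5 measured 7.67, 7.81 and 7.55 in non-db and 9.06, 8.22 and 7.82 in db pools. Its groups did not overlap, although pool 6 exceeded pool 2 by very little.

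The 3 intergenic circRNAs listed as lower had pool 3 below the other non-db pools. mmu_circRNA_37189 of chromosome 4 measured 6.78, 7.79 and 5.92 in non-db and 5.40, 6.001 and 6.78 in db pools. mmu_circRNA_35576 of chromosome 3 measured 9.14, 8.60 and 7.21 in non-db and 7.20, 7.65 and 7.93 in db pools. mmu_circRNA_45284 of chromosome 9 measured 7.32, 7.31 and 6.28 in non-db and 5.43, 6.32 and 7.15 in db pools. Pool 4 was the lowest pool and pool 6 the highest db pool for each. The groups overlapped, and the differences of -0.77, -0.72 and -0.67 became -0.44, -0.52 and -0.23 without pool 4.

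Of the 58 sense overlapping circRNAs, 28 were listed as higher. mmu_circRNA_20033 of Slc39a10, a zinc importer, measured 5.63, 6.27 and 5.92 in non-db and 8.50, 7.69 and 5.69 in db pools. mmu_circRNA_26402 of Kif27, a kinesin motor gene, measured 7.16, 7.44 and 7.14 in non-db and 9.84, 9.27 and 6.35 in db pools. Both had pools 4 and 5 above the non-db pools and pool 6 inside or below them. Their differences were 1.35 and 1.24, and 0.75 and 0.56 without pool 4. The study also tried both by qRT-PCR and reports that neither was detected.

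Cdc14b, a dual-specificity phosphatase gene, had a pair of sense overlapping circRNAs listed as higher. mmu_circRNA_26506 measured 6.92, 6.83 and 6.78 in non-db and 8.87, 7.37 and 6.84 in db pools. mmu_circRNA_004941 measured 9.09, 9.37 and 9.11 in non-db and 10.61, 9.62 and 9.13 in db pools. Pool 4 was well above the rest for both, while pool 6 was level with the non-db pools. mmu_circRNA_36182 of AK034519 measured 6.28, 6.22 and 5.93 in non-db and 7.36, 6.84 and 6.33 in db pools, and was the 1 sense overlapping circRNA listed as higher whose groups did not overlap.

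The 3 circRNAs of Hist1h1c had the largest negative differences of the 99. Hist1h1c, named H1f2 in RefSeq, encodes the linker histone H1.2, and replication-dependent histone genes of this kind lack introns. mmu_circRNA_012164 measured 10.49, 10.02 and 11.93 in non-db and 9.53, 10.20 and 9.11 in db pools. mmu_circRNA_007217 measured 11.05, 10.28 and 12.22 in non-db and 10.11, 10.57 and 9.31 in db pools. mmu_circRNA_009340 measured 9.45, 9.31 and 10.66 in non-db and 8.51, 9.28 and 8.22 in db pools. For each, pool 3 was the highest and pool 6 the lowest. The first and second overlapped between groups in pools 2 and 5, and the third did not, by a narrow margin between the same pools. The differences were -1.20, -1.19 and -1.14, and -1.16, -1.25 and -1.06 without pool 4. Centred on their own means, these circRNAs differed by at most 0.38 log2 units in any pool. Whether their probes share sequence was not tested, and no cause is read from their like course over the pools. The 250 bases before the start of their gene are shown as a description, chr13:23738557-23738806 on the plus strand of GRCm38.p6 from RefSeq. Capitals mark the H1 box AAACACA, the CCAAT box and the overlapping TATATA motifs.
Hist1h1c upstream: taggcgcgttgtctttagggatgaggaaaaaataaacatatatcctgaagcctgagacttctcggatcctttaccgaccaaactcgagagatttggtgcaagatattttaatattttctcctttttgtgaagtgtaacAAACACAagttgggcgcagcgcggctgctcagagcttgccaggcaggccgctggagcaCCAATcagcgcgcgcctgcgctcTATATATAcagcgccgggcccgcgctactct
The H1 box began 112 bases before the start, the CCAAT box 54 and the first TATATA 31. On either strand, AAACACA was found in 6.25%, CCAAT in 33.8% and TATATA in 5.25% of the 32851 windows. These motifs are a description of the letters in the window, and the array did not measure its use.

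XLOC_010800 on chromosome 17 had 4 circRNAs, 3 intronic and 1 sense overlapping, all listed as lower. The sense overlapping mmu_circRNA_005444 measured 9.47, 9.41 and 10.56 in non-db and 8.52, 9.26 and 9.41 in db pools. The intronic mmu_circRNA_006032 measured 9.62, 9.70 and 10.73 in non-db and 8.65, 9.53 and 9.73 in db pools. Pool 3 was the highest and pool 4 the lowest for both, and the other 4 pools were nearly level. The intronic mmu_circRNA_003160 and mmu_circRNA_015214 had the same order of extremes, with values of 10.49 and 10.33 in pool 3 and of 8.58 and 8.39 in pool 4. Differences over the 4 lay between -0.75 and -0.67. mmu_circRNA_016863 of Rn45s, the precursor of ribosomal RNA, is annotated to the same chromosome and measured 10.90, 10.74 and 11.98 in non-db and 9.95, 10.87 and 10.95 in db pools. It was set beside XLOC_010800 after its values were seen. Centred on their own means, these 5 circRNAs differed by at most 0.24 log2 units in any pool, and their median ran from -0.96 in pool 4 to 1.07 in pool 3. Neither gene matched a RefSeq entry, and ribosomal RNA genes are repeated in the genome, so the source of the signal cannot be placed from the files.

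**Figure D5:**
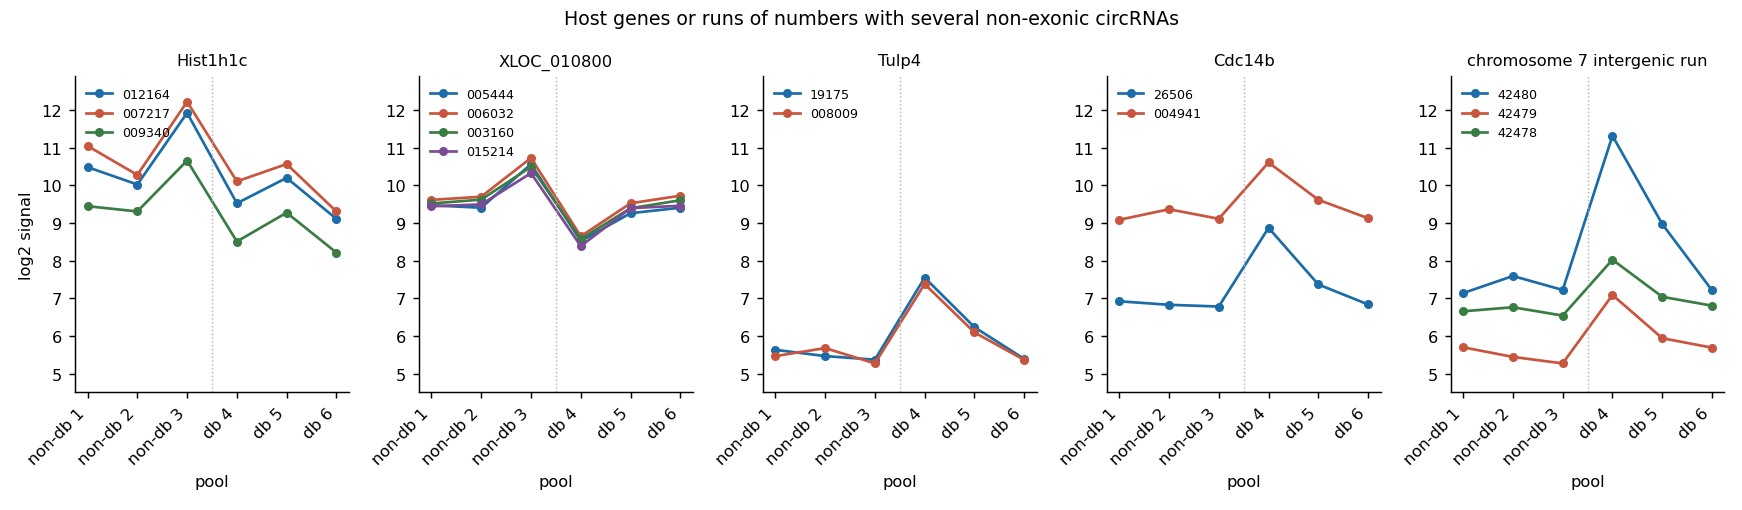
Log2 signal by pool of the circRNAs of Hist1h1c, XLOC_010800, Tulp4, Cdc14b and the run of consecutive numbers on chromosome 7; each line joins the values of 1 circRNA, labelled with its number, and all panels share a scale. The lines of Hist1h1c and XLOC_010800 run nearly parallel with peaks in pool 3, those of Tulp4 and Cdc14b peak in pool 4, and in the chromosome 7 run mmu_circRNA_42480 climbs much further in pool 4 than its neighbours.

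A further 9 sense overlapping circRNAs had a host gene with 1 exonic circRNA in the lists, and the direction was the same in all 9 pairs, as listed. The share of same directions over other pairs was not computed, so nothing is read from this count. Whether the probes of a pair share sequence was not tested. mmu_circRNA_012381 of Flna, the actin crosslinker filamin A, measured 8.16, 7.46 and 8.34 in non-db and 6.98, 7.34 and 7.44 in db pools. Its exonic partner mmu_circRNA_45526 measured 8.61, 7.82 and 8.68 in non-db and 7.68, 7.77 and 7.74 in db pools. In both, pool 2 was the lowest non-db pool and lay just above the db pools. mmu_circRNA_014445 of Myh9, the heavy chain of non-muscle myosin IIA, measured 8.89, 8.57 and 9.51 in non-db and 8.14, 8.45 and 8.55 in db pools. Its exonic partner mmu_circRNA_28799 measured 10.37, 10.17 and 11.55 in non-db and 10.25, 9.83 and 10.03 in db pools. Pool 3 was the highest for both, and pools 2 and 4 overlapped only for the exonic circRNA.

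The remaining partners were those of Spidr, Gmcl1, Akap9, Foxn2, Tbpl1, Vps13b and Ppp1r12a. Gmcl1 had the widest gap in size, with a log2 difference of 0.59 for mmu_circRNA_40525 and 2.42 for its exonic circRNA, whose signal was 10.98 in pool 4 and 5.89 in pool 6. Spidr, a DNA repair scaffold gene, had 0.67 for mmu_circRNA_19159 and 0.96 for the exonic circRNA. Among those listed as lower, Akap9, a centrosomal and Golgi scaffold gene, had -0.61 and -0.65, but pools 1 and 2 stood in opposite order in its circRNAs. mmu_circRNA_19355 of Akap9 measured 7.89 in pool 1 and 6.16 in pool 2, whereas the exonic mmu_circRNA_38037 measured 7.30 and 8.68. Within the second scan session the difference of mmu_circRNA_19355 was 0.20, opposite in sign to that over all pools. The forkhead gene Foxn2 had -0.61 and -0.60, Tbpl1, a TATA-binding protein relative, -0.60 and -0.80, and Vps13b, a lipid transfer gene, -0.60 and -0.59. Ppp1r12a, the targeting subunit of myosin phosphatase, had -0.59 and -0.61.

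Host genes were grouped by known role, and the counts of higher and lower circRNAs are those of the lists. Of 9 circRNAs from transcription and chromatin genes, 3 were higher (Ncoa2, Samd1 and Zfhx3) and 6 lower (Atxn1, Foxn2, Tbpl1 and the 3 of Hist1h1c). mmu_circRNA_007951 of Samd1, a chromatin protein that binds CpG islands, measured 13.08, 12.70 and 12.09 in non-db and 16.09, 14.44 and 10.90 in db pools. Its pool 6 lay below every non-db pool, and the difference of 1.19 was 0.047 without pool 4. Of 5 circRNAs from RNA processing and translation genes, 1 was higher, that of Rsrc1, and 4 were lower, those of Cstf3, Rn45s, Rpl4 and Srrm2. Of 8 from genes of the cytoskeleton and adhesion, 3 were higher (Arhgap12, Cenpo and Kif27) and 5 lower (Akap9, Ctnnd1, Flna, Myh9 and Ppp1r12a). mmu_circRNA_34003 of Ctnnd1, the cadherin-binding p120 catenin, measured 5.47, 5.998 and 5.61 in non-db and 5.01, 4.96 and 5.31 in db pools, and its groups did not overlap.

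Of 5 circRNAs from membrane transport and channel genes, 4 were higher (Cacna1e, Cacng2, Cnnm2 and Slc39a10) and that of Slco6d1 was lower. The median log2 difference of these 5 was 1.19, a value that follows from how they were listed and from which nothing is read. Of 6 from vesicle and lipid traffic genes, 2 were higher (Osbpl9 and Tango2) and 4 lower (Rint1, Samd8, Stx8 and Vps13b), with a median of -0.69. mmu_circRNA_38255 of Rint1, which acts in transport between Golgi and endoplasmic reticulum, measured 12.38, 10.997 and 8.57 in non-db and 9.85, 9.83 and 9.66 in db pools. Pool 3 was below every db pool, so its difference of -0.87 came with a non-db SD of 1.93. Of 6 from kinase and phosphatase genes, 3 were higher (Rps6ka5 and the pair of Cdc14b) and 3 lower (Ccny, Fgfr2 and Ppp2r3a). Of 3 from ubiquitin and proteasome genes, that of Trim21 was higher and those of Psmd4 and Rnf4 were lower. In total 44 of the 99 were in a role list. Among the 72 host genes, 64 matched a RefSeq gene, of which 59 code for protein and 5 are long non-coding RNA genes.

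The circRNAs nearest to the threshold show how it divided the list. On the higher side they were mmu_circRNA_40525 of Gmcl1, mmu_circRNA_34637 of AK042765 and mmu_circRNA_004941 of Cdc14b, all at 1.51-fold. On the lower side they were mmu_circRNA_18993 of Ppp1r12a, at 1.504-fold, and mmu_circRNA_28776 of Mroh4 and mmu_circRNA_19131 of Vps13b, at 1.51-fold. The nearest probes just outside were at 1.4998-fold higher and 1.4994-fold lower. mmu_circRNA_28776 measured 8.24, 8.32 and 9.21 in non-db and 7.64, 7.93 and 8.44 in db pools, with pool 6 inside the non-db range. The study counts this circRNA and mmu_circRNA_19188 among those significantly decreased in db. Its threshold was a p-value under 0.05, and it describes no adjustment. limma's test here was unpaired, and 0 of all probes kept passed after adjustment. A call without adjustment and a count after it are unlike measures, so this count does not test the study's call. mmu_circRNA_34637 measured 6.24, 6.42 and 6.06 in non-db and 7.04, 7.12 and 6.35 in db pools, and was among the 3 with their highest signal in pool 5.

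Of the 50 circRNAs outside the naming rule, the 28 listed as higher lay between 1.51-fold and 2.33-fold, and the 22 listed as lower between 1.51-fold and 1.92-fold. Without pool 4, 4 of the 28 and 2 of the 22 changed sign. Among the 4 was that of Fam46c, whose name and that of Ppp1r12a rested on a choice between 2 probes with the same fold, made on the listed p-value. circRNAs of the same host gene share their locus, and circRNA ends are not given in the files. Shared probe sequence within Hist1h1c, XLOC_010800, Tulp4 or Cdc14b, or between a circRNA and its exonic partner, was therefore not tested.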

How the data were processed

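Neutrophil circRNA signal was read on arrays from 6 pools, which were placed in the db or non-db group by their titles. Per the submitters' processing notes, Agilent Feature Extraction 11.0.1.1 and limma were used. The authors deposited intensity values for the spots of each array, not normalized between arrays, and log2 values of 14236 circRNA probes, normalized by a method not given in the sources used here. Because the intensity table of pool 1 ends after 2422 of 15712 spots, the log2 values served for every pool. A probe was kept when the scanner marked it as well above background on 3 or more of the 5 complete arrays.

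The files pair probes with no names. Type, host gene and chromosome are those of the study's lists, linked to a probe by the fold of group means (tolerance 0.001%). Of the 453, 449 matched 1 probe and 4 matched 2. A fold equal to the listed one follows from this link. Tests used R 4.3.3 and limma 3.58.1 (lmFit and eBayes), two-sided, with Benjamini-Hochberg adjustment over the 12722 probes kept, and limma was tested on simulated data. Tables and plots were made with Python 3.11.15, pandas 2.3.3 and matplotlib 3.10.9.

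Named with values were 49 circRNAs by rule: those sharing a host gene or a run of numbers, the 3 largest differences of each type and direction, groups without overlap, those with 1 exonic partner, those nearest to the threshold, and those of Cdr1, Rian and Mirg, mmu_circRNA_19188 and mmu_circRNA_28776. 1 of these is not reported here. Genes of the role lists are also named. The circRNAs and lists were chosen with earlier results of these data known. Alternatives were scanner values of pools 2 to 6 (scaled to the 75th percentile, quantile-normalized, or with normexp, offset 50), other filters, each pool left out, group medians, array weights, the scan session and, chosen after seeing the data, 1 circRNA per locus. Sequences are from RefSeq tables of GRCm38.p6. No circRNA coordinates are printed, since the sources used here do not give their genome build.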

Additional observations from a re-analysis of the deposited data

How the results depend on the processing

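Each count past 1.5-fold depended on single pools. Over all probes kept, the higher and lower counts of 206 and 246 became 321 and 1261 with scanner values scaled to the 75th percentile and 590 and 830 with quantile-normalized ones, the lower count was 161 with array weights, and leaving out a pool gave 66 to 457 and 102 to 485, the lowest of each without pool 4. Of the 54 circRNAs listed as higher and the 45 as lower, 27 and 23 stayed past the threshold with normexp, 35 and 24 with group medians, 27 and 16 with array weights, and 10 to 54 and 13 to 42 with a pool left out, the lowest again without pool 4. Without pool 2 and without pool 3 the lower count was 26 and 28. Without pool 6, limma gave 2 probes with an adjusted p under 0.05 (range 0 to 2 with a pool left out), and 0 under the other alternatives run.

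The median signal of a type above that of all probes kept was 1.23 for exonic circRNAs and became 1.56 (75th percentile), 0.99 (normexp), 1.54 (quantile), 1.44 (no filter), 1.08 (filter on all 5 arrays) and 2.07 (highest pool). For sense overlapping it was 1.57 and became 2.02, 1.35, 2.03 and 1.77 under the first 4 of these and 2.64 with the highest pool. For intronic it was 1.53, and 1.95 with either scanner scaling and 2.39 with the highest pool. With the highest pool, antisense had 4.01 and intergenic 2.16, and intergenic had 1.75 with 1 circRNA per locus.

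Of 637 values of the named circRNAs under an alternative, 634 kept their direction, and 37 of these moved by more than 1 within-group SD. The same difference chose the named circRNAs and the alternatives reuse its arrays, so nothing is read from the kept direction. The direction was reversed for mmu_circRNA_28632, at 0.056 (75th percentile) and 0.032 (quantile) in the scanner values of pools 2 to 6. It was also reversed for mmu_circRNA_19355, at 0.20 within the second scan session. The causes were not tested. The groups share no replicate number, and no paired test was run over all probes kept. A paired t-test, with pools matched in order of number, served only to choose between 2 probes with the same fold. A limma fit blocked on scan session gave 326 probes with an unadjusted p under 0.05 and 0 after adjustment. The probes of all 99 circRNAs passed the filter, which rests on the scanner's flag in the 5 complete arrays. Whether signal over background limited the detection of the circRNAs themselves was not tested.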
